A study of Drosophila melanogaster with 4 samples.

Results

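The nuclei described here are those of adipose tissue in the abdominal wall of adult male flies, compared between flies that over-expressed tsc1 and tsc2 in another tissue, the oenocytes, and flies that expressed EGFP there. A nucleus was taken as adipose when its unique molecular identifiers (UMIs, each standing for 1 captured transcript) of apolpp, Pli, Egfr, AkhR, Ork1, CG10960, bgm and LpR2 summed to at least 5 and exceeded those of FASN3, CG2765, bru2, vvl, Mhc, sls, bt, Cpr49Ab and Cpr65Au, which mark oenocytes, muscle and cuticle. By this rule 13321 of 25141 nuclei were adipose. The nuclei were thus selected on the counts of these 17 genes, so the genes are given as levels with no test and were left out of every comparison.

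The fat body, the adipose tissue of the fly, stores triacylglycerol in lipid droplets and sugar as glycogen, loads lipid onto the apolipoprotein that apolpp encodes, and secretes most of the proteins of the hemolymph. It is also the main source of antimicrobial peptides, which the Toll and Imd pathways induce. Oenocytes are hepatocyte-like cells that lie against this tissue under the cuticle and make very long chain fatty acids and cuticular hydrocarbons. Tsc1 and its partner gigas, the fly Tsc2, form a complex that holds back the TOR kinase, which couples insulin and nutrient signals to the making of ribosomes and to growth. The comparison asks which transcripts of adipose tissue differed when this brake was over-expressed in its neighbour.

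In the oenots>tsc1,tsc2 genotype, PromE-GAl4 drove UAS-Tsc1 and UAS-Tsc2, and in the control genotype, oenots>EGFP, it drove UAS-2xEGFP. PromE is an oenocyte promoter, and per the paper this driver is also expressed in the male accessory glands. All flies carried tub-Gal80ts, a temperature-sensitive repressor of Gal4, in a w1118 background. Per the labels both genotypes were kept at 18 °C on standard food and moved to 29 °C for 4 days. The methods of the study give a high sugar diet for over-expression experiments, so the food of these flies is uncertain. Each genotype had 2 libraries, each of 40 pooled abdomens from which the gut and male reproductive organs had been removed, and nothing in the labels ties replicate numbers to shared animals or days. The p-values therefore measure the spread between these libraries. The libraries of the 2 genotypes were deposited in separate files, so genotype and any batch that goes with the file cannot be told apart.

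The libraries held 7594 and 2267 nuclei in oenots>tsc1,tsc2 and 7213 and 8067 in oenots>EGFP. The adipose nuclei summed to 1816398 and 518176 UMIs in oenots>tsc1,tsc2, against 1704664 and 2339035 in oenots>EGFP, so oenots>tsc1,tsc2 replicate 2 was the shallowest by a wide margin. Adipose nuclei of at least 1000 UMIs were more frequent in oenots>tsc1,tsc2, at 4.64% and 15.7%, against 2.18% and 2.63% in oenots>EGFP. Between the replicates of a genotype the adipose sums differed by a chi-square per degree of freedom of 9.41 in oenots>tsc1,tsc2 and 13.4 in oenots>EGFP, where sampling noise gives about 1. Pairs of libraries shared between 15 and 77 nucleus barcodes. Of the transgenes, gal4 alone was analysed here. It had 319 and 296 counts per 1000000 UMIs of the class in its library (CPM) in the oenocytes of oenots>tsc1,tsc2, against 169 and 355 CPM in those of oenots>EGFP, and 16.7 and 36.4 CPM in oenots>tsc1,tsc2 adipose nuclei, against 15.0 and 12.2 CPM in oenots>EGFP adipose nuclei. UMIs of gal4 were found in 0.391%, 0.908%, 0.451% and 0.281% of adipose nuclei of the 4 libraries in the same order, and in 6.26%, 5.83%, 3.41% and 7.28% of oenocyte nuclei.

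The choice of nuclei was checked against the authors' clusters, which were used here for oenots>EGFP only. Of 8971 control nuclei adipose by the rule, 90.3% belonged to the deposited adipose clusters 0, 2, 4 and 8, and 91.5% of the 8860 nuclei of those clusters passed the rule. The rule also took 48 of the 86 nuclei of cluster 13, which holds spermatid-type genes, and 77 of the 117 nuclei of cluster 10. The median adipose nucleus carried between 20 and 25 marker UMIs in the 4 libraries, with no UMI of the other markers, so few nuclei lay near the threshold. Exactly 5 marker UMIs were found in 82 and 13 adipose nuclei of oenots>tsc1,tsc2 and in 74 and 102 of oenots>EGFP, and 4 UMIs, just outside the rule, in 104 and 16 nuclei of oenots>tsc1,tsc2 and 55 and 64 of oenots>EGFP.

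Among the genes that chose the nuclei, the apolipoprotein gene apolpp had 21131 and 27705 CPM in oenots>tsc1,tsc2, against 32145 and 30198 CPM in oenots>EGFP, here with the UMIs of the rule genes kept in the total. AkhR, the receptor of the lipid-mobilizing adipokinetic hormone, had 568 and 774 CPM in oenots>tsc1,tsc2, against 818 and 1039 CPM in oenots>EGFP. Pli, the fly Pellino, had 6736 and 4203 CPM in oenots>tsc1,tsc2, against 4347 and 4331 CPM in oenots>EGFP. All 3 marker genes were thus abundant in every library. The widest gap among the 8 was that of bgm, an acyl-CoA synthetase of very long chain fatty acids, at 502 and 672 CPM in oenots>tsc1,tsc2 and 1498 and 2131 CPM in oenots>EGFP. These values are descriptions, since the rule used them.

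Adipose nuclei made up 47.1% (95% Wilson interval 46.0 to 48.3) and 34.0% (32.1 to 36.0) of the nuclei in oenots>tsc1,tsc2, against 55.3% (54.2 to 56.5) and 61.7% (60.7 to 62.8) in oenots>EGFP. Both oenots>tsc1,tsc2 libraries lay below both oenots>EGFP libraries, by 18.0 percentage points between the means. With 2 libraries against 2 the exact permutation test cannot give a two-sided p below 0.333, which is the p it gave. Nuclei of no class made up 23.4% and 15.7% in oenots>tsc1,tsc2 and 12.5% and 8.40% in oenots>EGFP, and oenocyte nuclei 18.3% and 31.8% in oenots>tsc1,tsc2 and 21.9% and 21.1% in oenots>EGFP. Among nuclei with at least 5 UMIs of the adipose or of the other markers, the adipose share was 61.1% and 40.0% in oenots>tsc1,tsc2, against 62.9% and 67.1% in oenots>EGFP. With every nucleus thinned to 200 UMIs before the rule was applied, it was 38.8% and 27.4% of all nuclei in oenots>tsc1,tsc2, against 49.5% and 54.7% in oenots>EGFP. A lower share of nuclei can come from fewer adipose nuclei or from fewer marker UMIs in each, and these cannot be told apart here.

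**Figure D1:**
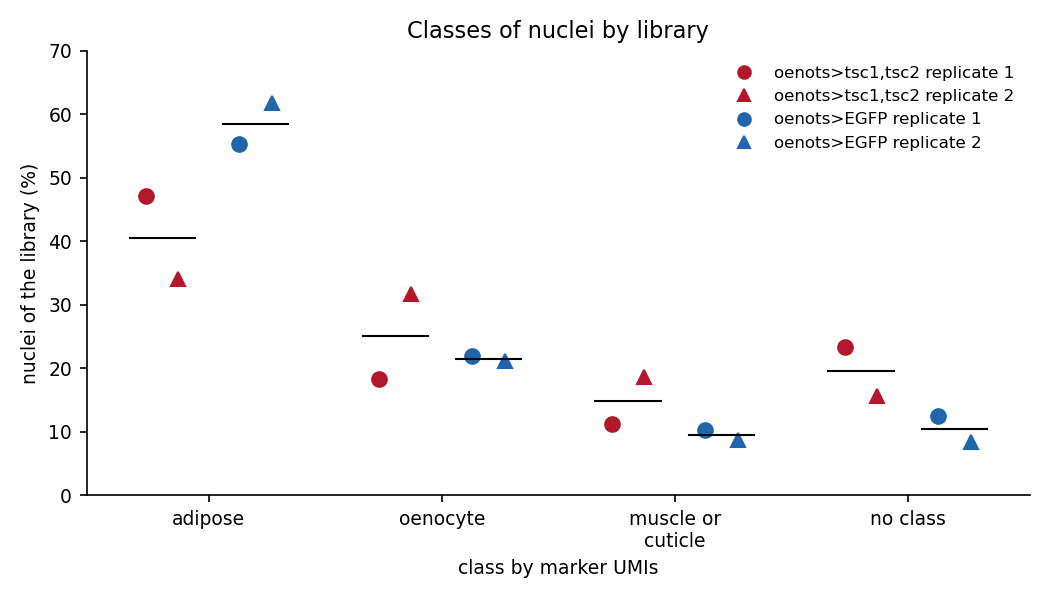
Share of all nuclei (percent) in each class for the 4 libraries, oenots>tsc1,tsc2 left of oenots>EGFP. Red points are oenots>tsc1,tsc2 libraries and blue points oenots>EGFP libraries, circles replicate 1 and triangles replicate 2, and each black line is a mean of 2. The adipose share was 47.1% and 34.0% in oenots>tsc1,tsc2, against 55.3% and 61.7% in oenots>EGFP.

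UMIs of adipose nuclei were summed per library and tested for a difference between genotypes with edgeR's quasi-likelihood test over the 8245 genes that passed its filter on low counts. At an adjusted p of 0.05, 0 genes (0%) were called, and the smallest adjusted p was 0.147. An unadjusted p under 0.05 was reached by 696 genes that were higher in oenots>tsc1,tsc2 (8.44%) and 324 that were lower (3.93%). DESeq2 on the same sums called 85 genes higher (1.03%) and 29 lower (0.352%). With other filters edgeR itself made calls, for 39 of 5130 genes that had at least 10 counts in every library and for 287 of 11793 genes with no filter. The libraries of the genotypes did not overlap in CPM for 1709 higher (20.7%) and 1694 lower genes (20.5%). These shares are the background for each gene group below. The median log2 fold change over all genes was 0.01, and all fold changes are oenots>tsc1,tsc2 over oenots>EGFP on the log2 scale. In bulk sums of this kind, fewer expressing nuclei and less RNA in each nucleus cannot be told apart.

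**Figure D2:**
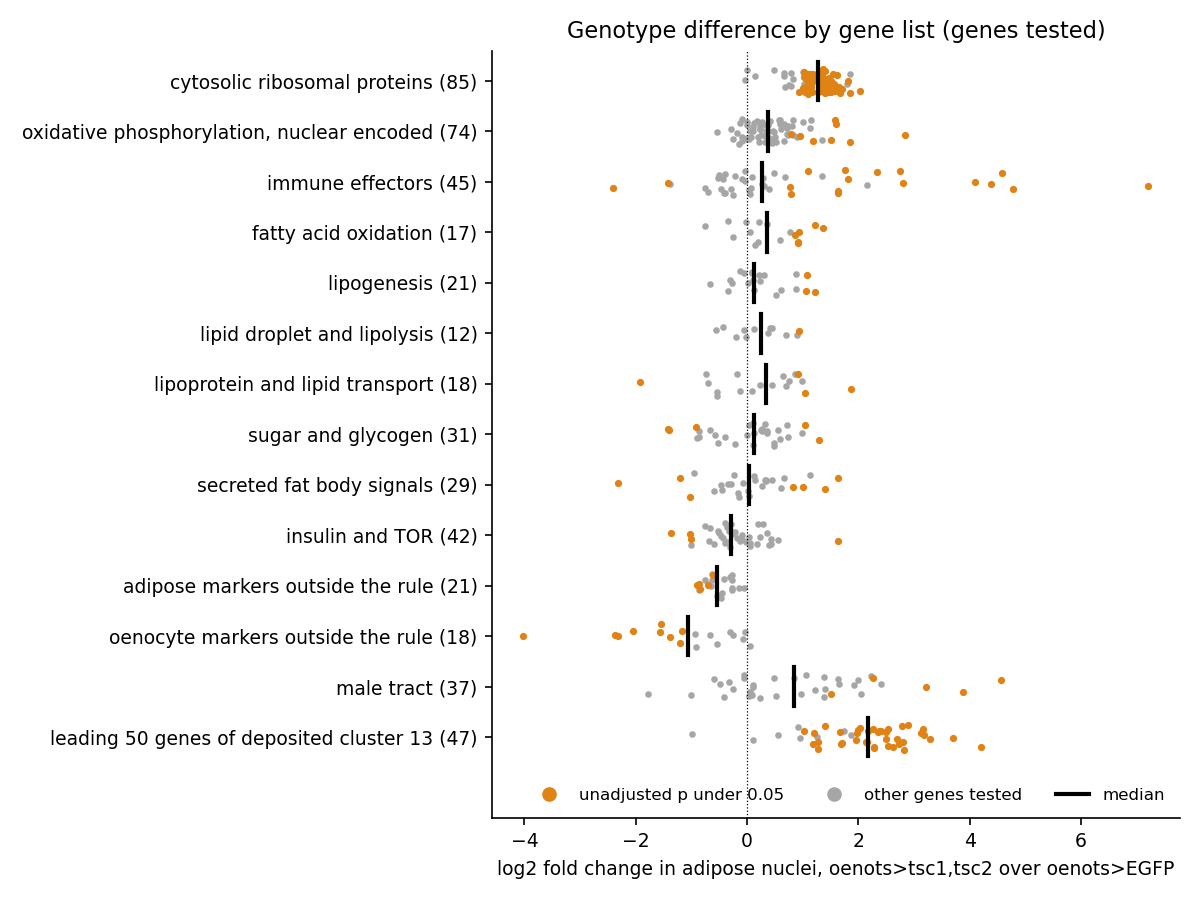
Log2 fold change of each tested gene in adipose nuclei, oenots>tsc1,tsc2 over oenots>EGFP, by gene list, with the number of genes tested in brackets. Points are genes, orange with an edgeR unadjusted p under 0.05 and gray otherwise, and black bars are list medians. The cytosolic ribosomal protein genes had a median of 1.27 and the oenocyte markers outside the rule a median of -1.05.

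Genes for the proteins of the cytosolic ribosome were higher in oenots>tsc1,tsc2 adipose nuclei almost without exception. Of 88 such genes in the files 85 passed the filter, 67 of these were higher at an unadjusted edgeR p under 0.05 and 0 lower, and 79 were higher without overlap between the libraries, well above the shares of all genes given above. DESeq2 called 23 of them higher and 0 lower, and edgeR called 0 at the adjusted threshold. Together they took 58251 and 90269 CPM in oenots>tsc1,tsc2 adipose nuclei, against 30131 and 32534 CPM in those of oenots>EGFP. Both oenots>tsc1,tsc2 libraries lay above both controls, and replicate 2 lay highest.

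RpL3, of the large subunit, had 639 and 678 CPM in oenots>tsc1,tsc2, against 209 and 260.3 CPM in oenots>EGFP (log2 fold change 1.53, SE 0.33, edgeR adjusted p = 0.189, DESeq2 adjusted p = 0.00213). It lies at chromosome 3R, 11221894 to 11225173 of Release 6. RpLP1, of the ribosomal stalk, had 2205 and 2868 CPM in oenots>tsc1,tsc2, against 678 and 977 CPM in oenots>EGFP, and RpL11 743 and 1194 CPM, against 265 and 312 CPM in oenots>EGFP. The small subunit gene RpS2 had 685 and 852 CPM in oenots>tsc1,tsc2 and 263 and 295 CPM in oenots>EGFP, and sta, also of the small subunit, 859 and 1010.1 and 344 and 350.0 CPM in the same order. None of these genes overlapped between genotypes. The smallest estimates of the list were those of the duplicate genes RpS5b, at -0.04, RpS19b, at 0.00, and RpS15Ab, at 0.14, of which RpS5b and RpS19b are known for their expression in the germ line. Duplicates share sequence with their main copies, so how UMIs were split between the copies is uncertain.

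The same sum was higher in the other tissues of these flies. In oenocyte nuclei it was 85478 and 82516 CPM in oenots>tsc1,tsc2 and 46936 and 47460.2 CPM in oenots>EGFP, and in muscle and cuticle nuclei 204425 and 171517 CPM in oenots>tsc1,tsc2 and 137251 and 150799 CPM in oenots>EGFP. In each of the 3 classes both oenots>tsc1,tsc2 libraries lay above both controls, and none of the ribosomal protein genes passed the test of a difference between adipose and oenocyte responses. The median log2 fold change in adipose nuclei, 1.27, was 0.72 without oenots>tsc1,tsc2 replicate 2 (30 of 87 genes higher at an unadjusted p under 0.05) and 0.74 without nuclei of at least 1000 UMIs (44 of 84). It was 1.19 without oenots>EGFP replicate 1, where 16 of 87 genes passed, 1.30 without replicate 2 of that genotype, where 40 of 87 passed, and 1.64 without oenots>tsc1,tsc2 replicate 1, where 80 of 85 passed. Non1, a nucleolar GTPase for the assembly of the large subunit, had 288 and 267 CPM in oenots>tsc1,tsc2, against 34.9 and 57.0 CPM in oenots>EGFP (log2 fold change 2.62, SE 0.37, DESeq2 adjusted p = 7.27e-07, edgeR adjusted p = 0.147). Its libraries were far apart in oenocytes too, at 283 and 392 CPM in oenots>tsc1,tsc2 and 63.7 and 71.0 CPM in oenots>EGFP, a difference that passed edgeR's test there (adjusted p = 0.0466).

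**Figure D3:**
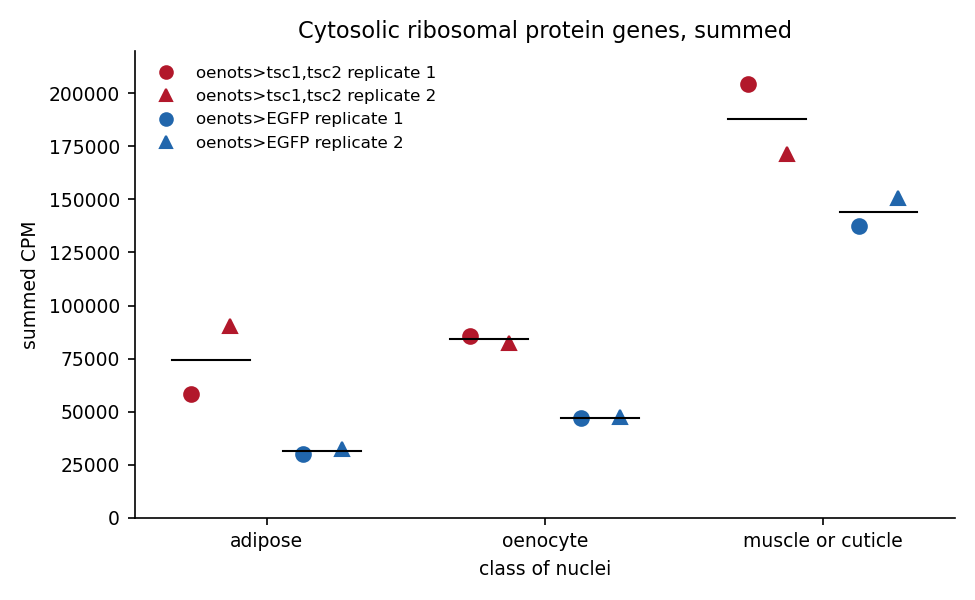
Summed CPM of the cytosolic ribosomal protein genes in adipose, oenocyte, and muscle and cuticle nuclei, oenots>tsc1,tsc2 left of oenots>EGFP in each class. Points are libraries and lines are means of 2. In adipose nuclei the sums were 58251 and 90269 CPM in oenots>tsc1,tsc2, against 30131 and 32534 CPM in oenots>EGFP, and muscle and cuticle nuclei showed the smallest relative gap.

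Of 13 attacin, diptericin, drosocin, cecropin, defensin and metchnikowin genes in the list of immune effectors, a family grouped after the values were seen, 7 passed the filter. At an unadjusted edgeR p under 0.05, 6 of the 7 were higher in oenots>tsc1,tsc2 and 0 lower, DESeq2 called 5 higher, and edgeR called 0 at the adjusted threshold. The other one was CecA1, a cecropin gene, and AttD, CecA2, CecB, CecC, Def and Mtk had too few counts to be tested. AttC, AttB, DptA and Dro had too few counts in oenots>EGFP to pass the filter on those libraries. They passed through the oenots>tsc1,tsc2 libraries alone and could only come out higher. The count of higher genes is thus a description and no test of direction. AttC, an attacin, had 72.7 and 99.2 CPM in oenots>tsc1,tsc2, against 5.61 and 4.53 CPM in oenots>EGFP (log2 fold change 4.10, SE 0.43, edgeR adjusted p = 0.147, DESeq2 adjusted p = 5.13e-07), and it had the smallest edgeR p of all genes. DptB, a diptericin, had 132 and 182 CPM in oenots>tsc1,tsc2, against 23.7 and 22.6 CPM in oenots>EGFP (log2 fold change 2.80, SE 0.38, DESeq2 adjusted p = 1.33e-05). Its neighbour DptA had 34.6 and 64.8 CPM in oenots>tsc1,tsc2, against 0 and 0.453 CPM in oenots>EGFP. With 92 counts in oenots>tsc1,tsc2 and 1 count in oenots>EGFP, its pooled ratio was 158 (95% interval 27.6 to 6289), an interval that covers counting error only. Dro, a drosocin, had 21.9 and 24.3 CPM in oenots>tsc1,tsc2, against 0.623 and 1.36 CPM in oenots>EGFP. The attacin genes AttA and AttB were each higher in oenots>tsc1,tsc2 as well, but they are near-identical copies, so the split of their UMIs is uncertain. For all 7 genes both oenots>tsc1,tsc2 libraries lay above both controls, which the filter fixed in advance for AttC, AttB, DptA and Dro.

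UMIs of these genes lay in few nuclei. UMIs of DptB were found in 3.38% and 1.56% of adipose nuclei in oenots>tsc1,tsc2, against 0.927% and 0.984% in oenots>EGFP, and with nuclei thinned to 200 UMIs in 1.62% and 1.04% of nuclei in oenots>tsc1,tsc2, against 0.501% and 0.402% in oenots>EGFP. For AttC the shares were 2.01% and 0.908% of adipose nuclei in oenots>tsc1,tsc2, against 0.200% and 0.181% in oenots>EGFP, and 0.894% and 0.389% of nuclei in oenots>tsc1,tsc2, against 0.100% and 0.0402% in oenots>EGFP after thinning. In oenocyte nuclei, which are not known as a source of these peptides, UMIs of AttC were found in 1.30% and 0.278% of oenocyte nuclei in oenots>tsc1,tsc2, against 0.126% and 0.117% in oenots>EGFP. Median depths were 439 and 510 UMIs in adipose nuclei of oenots>tsc1,tsc2, against 365 and 410 in those of oenots>EGFP, and 411 and 415 UMIs in oenocyte nuclei of oenots>tsc1,tsc2, against 356 and 433 in those of oenots>EGFP. AttC UMIs were thus also present in oenocyte nuclei of each library, in a smaller share than in adipose nuclei, and the part of free RNA in these shares was not tested.

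Of 18 drosomycin and bomanin genes tested, a family that the Toll pathway is known to induce and that was also grouped after the values were seen, 5 were higher and 0 lower at an unadjusted p under 0.05, with a median log2 fold change of 0.16. Drs, drosomycin, had 158 and 30.4 CPM in oenots>tsc1,tsc2, against 18.7 and 9.96 CPM in oenots>EGFP, and the bomanin gene Bom791 588 and 136 CPM in oenots>tsc1,tsc2, against 80.4 and 61.1 CPM in oenots>EGFP. In both, oenots>tsc1,tsc2 replicate 1 was several-fold above replicate 2. CG18067, a gene induced on infection, had 1986 and 927 CPM in oenots>tsc1,tsc2, against 499 and 439.6 CPM in oenots>EGFP (DESeq2 adjusted p = 0.00714). SPE, the protease that cleaves the Toll ligand, had 79.1 and 97.2 CPM in oenots>tsc1,tsc2, against 21.8 and 35.3 CPM in oenots>EGFP. Drs, Bom791, CG18067, SPE and AttB are immune effectors named after their values were seen.

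Of the 7 genes of the stress-induced Turandot family 4 were tested, of which 1, TotC, was lower and 0 higher at an unadjusted p under 0.05. TotC had 9.81 and 12.1 CPM in oenots>tsc1,tsc2, against 45.5 and 67.9 CPM in oenots>EGFP (log2 fold change -2.41, SE 0.41, DESeq2 adjusted p = 0.0406). TotA, also named after its values were seen, had 91.7 and 326 CPM in oenots>tsc1,tsc2, against 507 and 642 CPM in oenots>EGFP, with an edgeR p of 0.0802 that missed even the unadjusted threshold. Over the whole list of 63 immune effectors 45 passed the filter. Of these 15 were higher and 2 lower at an unadjusted p under 0.05, and DESeq2 called 7 higher and 1 lower. The 15 include AttC, AttB, DptA and Dro, which could only come out higher. Without oenots>tsc1,tsc2 replicate 1 the numbers were 9 higher and 5 lower of 42. The list median was 0.27. Of 21 tested genes of immune signalling, the receptors, adaptors and transcription factors of the pathways, 0 reached an unadjusted edgeR p under 0.05 and DESeq2 called 0, with a list median of -0.32.

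**Figure D4:**
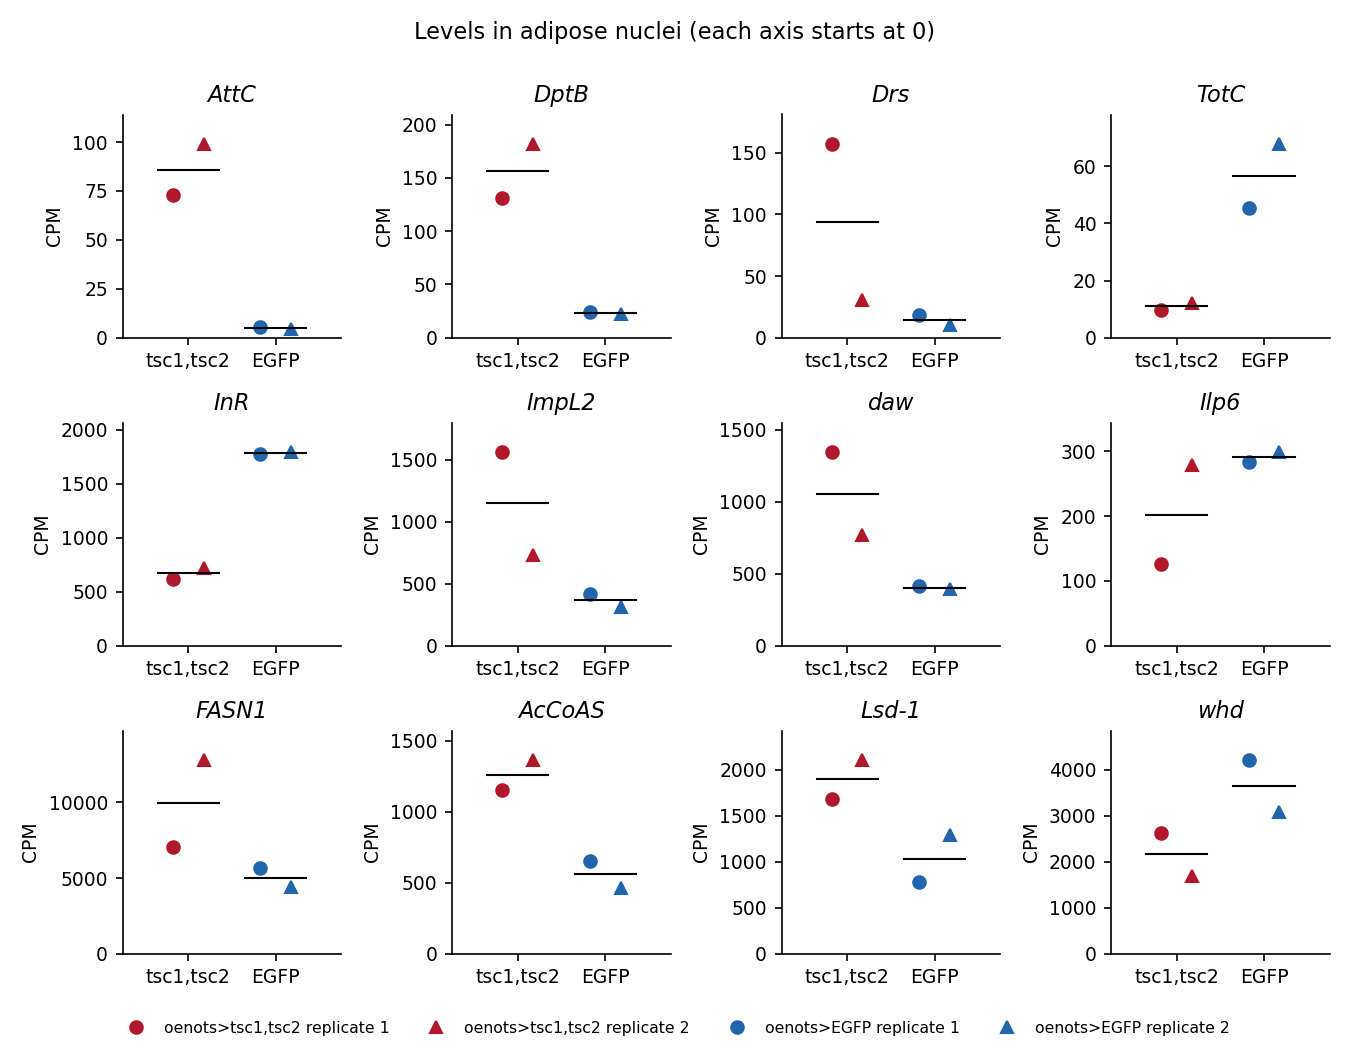
Levels in adipose nuclei (CPM, each axis starting at 0) of 12 genes, with oenots>tsc1,tsc2 left of oenots>EGFP in each panel. Points are libraries and black lines means of 2. AttC had 72.7 and 99.2 CPM in oenots>tsc1,tsc2 and 5.61 and 4.53 CPM in oenots>EGFP, and InR had 619 and 723 CPM in oenots>tsc1,tsc2 and 1774 and 1798 CPM in oenots>EGFP.

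Among genes of fatty acid and triacylglycerol synthesis the main pathway enzymes were uneven. FASN1, the fatty acid synthase of the fat body, had 7028 and 12830.3 CPM in oenots>tsc1,tsc2, against 5638 and 4429.8 CPM in oenots>EGFP (log2 fold change 1.05, SE 0.41, edgeR adjusted p = 0.370). It lies at chromosome 2L, 3056598 to 3068177. Its libraries did not overlap, and UMIs of FASN1 were found in 49.7% and 71.5% of nuclei in oenots>tsc1,tsc2, against 36.3% and 32.3% in oenots>EGFP after thinning to 200 UMIs. By RT-qPCR of oenocytes and adipose tissue together, the paper reports no change of fasn1 or acc in this genotype against a driver control. That mixed tissue and that control differ from those compared here. AcCoAS, which makes acetyl-CoA from acetate, had 1155 and 1366 CPM in oenots>tsc1,tsc2, against 656 and 460.5 CPM in oenots>EGFP, and Lpin, a phosphatidate phosphatase, 138 and 83.0 CPM in oenots>tsc1,tsc2, against 54.2 and 52.5 CPM in oenots>EGFP. Lpin overlaps kermit on the same strand, which leaves its count uncertain.

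The enzymes before and after FASN1 in the pathway had other values. ACC, which makes malonyl-CoA, had 467 and 787 CPM in oenots>tsc1,tsc2, against 656 and 584 CPM in oenots>EGFP. ATPCL, ATP citrate lyase, had 473 and 765 CPM in oenots>tsc1,tsc2, against 778 and 862 CPM in oenots>EGFP, and the desaturase gene Desat1 13140.0 and 11124 CPM in oenots>tsc1,tsc2, against 15088 and 7383 CPM in oenots>EGFP. Only the libraries of ATPCL did not overlap between genotypes among these 3, and its log2 fold change of -0.34 had an SE of 0.40. Of the 21 lipogenic genes tested, 3 were higher and 0 lower at an unadjusted p under 0.05, DESeq2 called 0, and the list median was 0.13.

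At an unadjusted p under 0.05, where 8.44% of all genes were higher and 3.93% lower, 1 of 12 lipid droplet and lipolysis genes passed. This was Lsd-1, perilipin 1, with 1686 and 2111 CPM in oenots>tsc1,tsc2, against 778 and 1288 CPM in oenots>EGFP (log2 fold change 0.94, SE 0.38, edgeR adjusted p = 0.393). Lsd-2, perilipin 2, had 2084 and 1587 CPM in oenots>tsc1,tsc2, against 1552 and 1249.6 CPM in oenots>EGFP. The triacylglycerol lipase gene bmm had 115 and 60.7 CPM in oenots>tsc1,tsc2, against 121 and 85.6 CPM in oenots>EGFP, and Hsl, hormone-sensitive lipase, 26.0 and 22.3 CPM in oenots>tsc1,tsc2, against 16.8 and 28.1 CPM in oenots>EGFP. The libraries of both lipases overlapped between genotypes.

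The genes of fatty acid oxidation summed to 6654 and 5445 CPM in oenots>tsc1,tsc2, against 8206 and 7042 CPM in oenots>EGFP, so the sum was lower. Of the 17 tested, the libraries of 7 were higher and of 3 lower without overlap. At an unadjusted p under 0.05, 6 of the 17 were higher and 0 lower, with a list median of 0.36, and DESeq2 called 0. The 6 were CG7461, an acyl-CoA dehydrogenase, Etf-QO, which passes its electrons on, yip2, a thiolase, both subunits of the trifunctional protein, Mtpalpha and Mtpbeta, and CPT2. Their log2 fold changes lay between 0.85 and 1.37. With 1 library left out, 1 of the 17 was higher without oenots>tsc1,tsc2 replicate 2 or either oenots>EGFP library, and 7 without oenots>tsc1,tsc2 replicate 1. CPT2, the inner carnitine palmitoyltransferase, had 34.6 and 36.4 CPM in oenots>tsc1,tsc2, against 19.9 and 18.1 CPM in oenots>EGFP. The outer one, whd, went the other way, with 2631 and 1684 CPM in oenots>tsc1,tsc2, against 4215 and 3084 CPM in oenots>EGFP (log2 fold change -0.75, SE 0.32, edgeR adjusted p = 0.419). Its libraries did not overlap. Over all genes, 8.44% were higher and 3.93% lower at an unadjusted p under 0.05. Nuclear-encoded genes of oxidative phosphorylation gave 8 higher and 0 lower of 74 at that threshold, with a median of 0.39. The libraries of 29 of them were higher without overlap and of 4 lower. With 1 library left out, the number higher lay between 1 of 76, without oenots>EGFP replicate 2, and 19 of 72, without oenots>tsc1,tsc2 replicate 1, and the median was 0.036 without oenots>tsc1,tsc2 replicate 2.

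Of 18 tested genes of lipoproteins and lipid transport, 3 were higher and 1 lower at an unadjusted p under 0.05. LpR1, a lipophorin receptor, had 24.2 and 18.2 CPM in oenots>tsc1,tsc2, against 110.3 and 55.2 CPM in oenots>EGFP (log2 fold change -1.92, SE 0.45, edgeR adjusted p = 0.197). In oenocyte nuclei LpR1 had 578 and 446 CPM in oenots>tsc1,tsc2 and 4824 and 3856 CPM in oenots>EGFP. Nplp2, a secreted protein gene, had 40699 and 65283 CPM in oenots>tsc1,tsc2, against 31512 and 27101 CPM in oenots>EGFP. The other 2 were Npc2g, of a sterol-binding family, and Lsp1beta, a storage protein. Mtp, which loads lipid onto lipoproteins, had 117 and 74.9 CPM in oenots>tsc1,tsc2, against 127 and 95.5 CPM in oenots>EGFP, and Apoltp, a lipid transfer particle protein, 231 and 144 CPM in oenots>tsc1,tsc2, against 292 and 260.3 CPM in oenots>EGFP.

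In sugar and glycogen metabolism, 2 of 31 tested genes were higher and 3 lower at an unadjusted p under 0.05. Treh, the trehalase gene, had 146 and 101 CPM in oenots>tsc1,tsc2, against 41.1 and 61.1 CPM in oenots>EGFP. Gpo1, of the glycerophosphate shuttle, was also higher. The lower genes were tobi, an alpha-glucosidase gene induced by insulin-like peptides, at 87.1 and 42.5 CPM in oenots>tsc1,tsc2, against 172 and 186 CPM in oenots>EGFP, and the sugar transporters Glut1 and Tret1-2. Tps1, which makes the blood sugar trehalose, had 2573 and 3158 CPM in oenots>tsc1,tsc2, against 1639.6 and 1909 CPM in oenots>EGFP (edgeR adjusted p = 0.418). GlyP, glycogen phosphorylase, had 127 and 261 CPM in oenots>tsc1,tsc2, against 161 and 446 CPM in oenots>EGFP, with overlapping libraries.

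Within insulin signaling, the receptor and a secreted antagonist stood apart from the rest. InR, the insulin receptor, had 619 and 723 CPM in oenots>tsc1,tsc2, against 1774 and 1798 CPM in oenots>EGFP, and was found in 8.35% and 11.0% of nuclei in oenots>tsc1,tsc2, against 20.3% and 19.8% in oenots>EGFP after thinning to 200 UMIs. Both oenots>tsc1,tsc2 libraries thus had less than either control (log2 fold change -1.36, SE 0.32, edgeR adjusted p = 0.197, DESeq2 adjusted p = 0.00555). InR lies at chromosome 3R, 21570248 to 21619321. In oenocyte nuclei it had 793 and 2164 CPM in oenots>tsc1,tsc2 and 410.1 and 1237 CPM in oenots>EGFP, with overlapping libraries. ImpL2, which binds insulin-like peptides in the hemolymph, had 1567 and 735 CPM in oenots>tsc1,tsc2 adipose nuclei, against 419 and 316 CPM in those of oenots>EGFP (log2 fold change 1.64, SE 0.40, edgeR adjusted p = 0.213, DESeq2 adjusted p = 0.0117). Its levels in oenocyte nuclei were 7161 and 8867 CPM in oenots>tsc1,tsc2 and 2469 and 3555 CPM in oenots>EGFP, so its libraries did not overlap there, with an edgeR adjusted p of 0.112. The part of oenocyte RNA in the adipose values was not tested.

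Of 42 tested genes of insulin and TOR signaling, 1 was higher (ImpL2) and 3 lower (InR, SNF4Agamma and Pi3K92E) at an unadjusted p under 0.05. The libraries of 21 were lower without overlap and of 2 higher, and the list median was -0.30. SNF4Agamma, the gamma subunit of the energy sensor AMPK, had 222 and 233 CPM in oenots>tsc1,tsc2, against 559 and 389.8 CPM in oenots>EGFP. Pi3K92E, the catalytic subunit of the kinase under InR, had 27.7 and 18.2 CPM in oenots>tsc1,tsc2, against 55.5 and 40.3 CPM in oenots>EGFP. foxo, the transcription factor that insulin signaling holds back, had 977 and 905 CPM in oenots>tsc1,tsc2, against 1351 and 969 CPM in oenots>EGFP. Thor, the 4E-BP that is a foxo target, had 1259 and 767 CPM in oenots>tsc1,tsc2, against 1227 and 503 CPM in oenots>EGFP, with overlapping libraries. Tsc1 and gig were not analysed here.

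Of 29 secreted factors tested, the libraries of 7 were higher and of 8 lower without overlap, shares near those of all genes. daw, a ligand of the activin family, had 1347 and 765 CPM in oenots>tsc1,tsc2, against 411 and 396 CPM in oenots>EGFP (log2 fold change 1.39, SE 0.34, edgeR adjusted p = 0.207, DESeq2 adjusted p = 0.0104). It lies at chromosome 2L, 2805261 to 2812376 and was found in 16.8% and 10.4% of nuclei in oenots>tsc1,tsc2, against 5.39% and 4.94% in oenots>EGFP after thinning. CNMa, a neuropeptide gene, had 66.4 and 38.5 CPM in oenots>tsc1,tsc2, against 30.5 and 23.5 CPM in oenots>EGFP, and Gbp3, a growth-blocking peptide gene, 344 and 259 CPM in oenots>tsc1,tsc2, against 161 and 185 CPM in oenots>EGFP. Lower were bnl, an FGF ligand, at 250.4 and 372 CPM in oenots>tsc1,tsc2, against 512 and 817 CPM in oenots>EGFP, dpp, a BMP ligand, at 19.6 and 24.3 CPM in oenots>tsc1,tsc2, against 52.3 and 47.1 CPM in oenots>EGFP, and the satiety peptide gene fit at 3.46 and 10.1 CPM in oenots>tsc1,tsc2, against 31.2 and 26.7 CPM in oenots>EGFP. The gene fit was too low in oenots>tsc1,tsc2 replicate 1 to pass the filter on those libraries. It passed through oenots>EGFP, so its direction is a description and no test. Over the list, 4 were higher and 3 lower at an unadjusted p under 0.05, and DESeq2 called daw and ImpL2. The leptin-like upd2 had no UMI in adipose nuclei of any library, where 3 counts over both oenots>tsc1,tsc2 libraries correspond to 1.35 CPM and over both oenots>EGFP libraries to 0.787 CPM.

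Some clock-linked and stress genes differed at an unadjusted p under 0.05. Of 12 clock genes 3 were lower and 0 higher at an unadjusted p under 0.05. to, a clock- and starvation-regulated carrier protein gene, had 41.0 and 22.3 CPM in oenots>tsc1,tsc2, against 145 and 187 CPM in oenots>EGFP (log2 fold change -2.33, SE 0.36, DESeq2 adjusted p = 5.42e-04). The share of adipose nuclei with a UMI of to was 1.45% and 0.519% of adipose nuclei in oenots>tsc1,tsc2, against 1.40% and 1.43% in oenots>EGFP, so the share did not follow the CPM. vri, a repressor of the clock, had 65.2 and 12.1 CPM in oenots>tsc1,tsc2, against 97.8 and 122 CPM in oenots>EGFP, and Pdp1, which acts on the same sites as vri, 17389 and 13403 CPM in oenots>tsc1,tsc2, against 27078 and 20906 CPM in oenots>EGFP. The mitochondrial chaperonin gene Hsp60A had 128 and 259 CPM in oenots>tsc1,tsc2, against 48.0 and 53.4 CPM in oenots>EGFP (DESeq2 adjusted p = 0.0233), while stv, Hsp26 and Hsp27 were lower at an unadjusted p under 0.05. The peroxiredoxin gene Jafrac1 had 611 and 540.5 CPM in oenots>tsc1,tsc2, against 254 and 281 CPM in oenots>EGFP (DESeq2 adjusted p = 0.0320). Of 23 autophagy genes 1 was higher and 0 lower, the cargo receptor ref(2)P at 287 and 484 CPM in oenots>tsc1,tsc2, against 116 and 173 CPM in oenots>EGFP.

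Of 60 cytochrome P450 genes tested, 7 were higher and 5 lower at an unadjusted p under 0.05, against 8.44% and 3.93% of all genes. DESeq2 called 2 of the 60 higher. Cyp6a8 had 163 and 46.6 CPM in oenots>tsc1,tsc2, against 6.23 and 4.98 CPM in oenots>EGFP (log2 fold change 4.25, SE 0.61, DESeq2 adjusted p = 7.06e-06), and Cyp4e3 619 and 389 CPM in oenots>tsc1,tsc2, against 145 and 174 CPM in oenots>EGFP (log2 fold change 1.67, SE 0.33). Both enzymes belong to families that oxidize lipids and foreign compounds. For both, all libraries of oenots>tsc1,tsc2 lay above all controls, and replicate 1 was the higher of the pair. Cyp6a8 was too low in oenots>EGFP replicate 2 to pass the filter on the oenots>EGFP libraries. It passed through oenots>tsc1,tsc2, so its direction is a description and no test.

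Of 21 markers of adipose tissue that the rule did not use, 5 were lower and 0 higher in oenots>tsc1,tsc2 at an unadjusted p under 0.05, and edgeR and DESeq2 called 0 at the adjusted threshold. All 21 had a log2 fold change below 0, with a median of -0.54, and the libraries of 16 were lower without overlap and of 0 higher. Without oenots>EGFP replicate 1, 0 of 21 reached the unadjusted threshold, without oenots>EGFP replicate 2, 2 did, and without oenots>tsc1,tsc2 replicate 2, 8 did. Without oenots>tsc1,tsc2 replicate 1 or oenots>EGFP replicate 1, 2 of 21 lay above 0. Their sum was 105728 and 96134 CPM in oenots>tsc1,tsc2, against 145575 and 131805 CPM in oenots>EGFP. The 5 were Sdc, syndecan, at 1986 and 1822 CPM in oenots>tsc1,tsc2, against 3738 and 3337 CPM in oenots>EGFP, CG13868, CG8034, the phosphodiesterase gene Pde9, and Pdp1. Mkp3, which dephosphorylates ERK, had 828 and 937 CPM in oenots>tsc1,tsc2, against 1211 and 1633 CPM in oenots>EGFP (edgeR adjusted p = 0.532). Of the genes that mark deposited adipose clusters in controls, Sod3, an extracellular superoxide dismutase of cluster 2, had 89.4 and 70.9 CPM in oenots>tsc1,tsc2, against 75.4 and 44.4 CPM in oenots>EGFP. Obp99b, an odorant-binding protein gene of cluster 4, had 96.9 and 425 CPM in oenots>tsc1,tsc2, against 418 and 295 CPM in oenots>EGFP. Obp99b overlapped between genotypes and differed more than 4-fold between the oenots>tsc1,tsc2 replicates.

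Of the oenocyte markers outside the rule, 9 of 18 tested genes were lower and 0 higher in oenots>tsc1,tsc2 adipose nuclei at an unadjusted p under 0.05, with 4 called lower by DESeq2 and a median of -1.05. They summed to 1729 and 2190.3 CPM in oenots>tsc1,tsc2 adipose nuclei, against 3990.2 and 4147 CPM in oenots>EGFP adipose nuclei. In oenocyte nuclei the same genes summed to 19287 and 18999 CPM in oenots>tsc1,tsc2 and 69936 and 82933 CPM in oenots>EGFP. CG16904, a fatty acid elongase gene, had 110.2 and 109 CPM in oenots>tsc1,tsc2 adipose nuclei, against 472 and 457 CPM in oenots>EGFP adipose nuclei, and 2257 and 1885 CPM in oenots>tsc1,tsc2 oenocytes, against 8137 and 10209.8 CPM in oenots>EGFP oenocytes, where it fell (edgeR adjusted p = 0.0304). Sgp had 34.6 and 10.1 CPM in oenots>tsc1,tsc2 adipose nuclei, against 456 and 332 CPM in oenots>EGFP adipose nuclei, and 459 and 196 CPM in oenots>tsc1,tsc2 oenocytes, against 10208 and 12876 CPM in oenots>EGFP oenocytes. For the sum, CG16904 and Sgp, the levels were thus lower in both tissues, with adipose levels a small part of the oenocyte ones. Not every gene of the list did so. eloF had 316 and 279 CPM in oenots>tsc1,tsc2 oenocytes, against 32.6 and 114 CPM in oenots>EGFP oenocytes. In adipose nuclei eloF had 16.2 and 16.2 CPM in oenots>tsc1,tsc2, against 16.2 and 31.2 CPM in oenots>EGFP. In adipose nuclei with 0 UMIs of the 9 other markers, 7 of 18 oenocyte genes were still lower and the median was -0.74. The part of free oenocyte RNA in these values was not tested.

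Muscle markers outside the rule summed to 2565 and 5387 CPM in oenots>tsc1,tsc2 adipose nuclei, against 2672 and 2778 CPM in oenots>EGFP adipose nuclei. Of 19 tested, 1 was higher at an unadjusted p under 0.05, with a median of 0.75. Without oenots>tsc1,tsc2 replicate 2 the median was -0.24, and without oenots>tsc1,tsc2 replicate 1, 15 were higher. Gut genes summed to 1852 and 326 CPM in oenots>tsc1,tsc2, against 2024 and 1198 CPM in oenots>EGFP. Of 17 tested, 1 was lower at that threshold, and 12 were lower without oenots>tsc1,tsc2 replicate 1. The library oenots>tsc1,tsc2 replicate 2 was thus the highest in muscle and the lowest in gut genes.

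UMIs of male reproductive tract genes varied between the libraries of each genotype. Whether the expression of the driver in male accessory glands bears on these genes was not tested. Of 41 male tract genes, which include seminal fluid and ejaculatory duct proteins, 37 passed the filter and 5 were higher and 0 lower at an unadjusted p under 0.05, with a sum of 12145 and 7543 CPM in oenots>tsc1,tsc2, against 5359 and 276 CPM in oenots>EGFP. The sum was thus also far from equal between the oenots>EGFP replicates. The list median of 0.84 was -0.27 without oenots>tsc1,tsc2 replicate 1, with 17 genes above 0 and 20 below, and -0.39 without oenots>EGFP replicate 2, with 4 higher and 7 lower at an unadjusted p under 0.05. Without oenots>EGFP replicate 1 it was 7.64, with 36 of 37 higher. The 50 leading genes of the deposited cluster 13, of spermatid type, were taken from the control clusters for this purpose after the data had been seen. Of 47 tested, 39 were higher and 0 lower at an unadjusted p under 0.05, with a median of 2.17. Their sums were 2033 and 1543 CPM in oenots>tsc1,tsc2, against 662 and 413 CPM in oenots>EGFP. Members too low in oenots>EGFP to pass the filter on those libraries could only come out higher, and their number is not given here. The counts of higher cluster 13 genes are thus a description and no test of direction. ocn, a testis-expressed gene, had 151 and 180.2 CPM in oenots>tsc1,tsc2, against 45.5 and 41.2 CPM in oenots>EGFP, and soti, which acts in spermatid individualization, 114 and 111 CPM in oenots>tsc1,tsc2, against 29.9 and 18.1 CPM in oenots>EGFP. At least 3 male tract UMIs were found in 27.0% and 12.8% of adipose nuclei of oenots>tsc1,tsc2, against 17.6% and 1.63% in oenots>EGFP. Without those nuclei 22 of 31 tested cluster 13 genes were higher at that threshold, with a median of 1.40, and 67 of 83 ribosomal protein genes, with a median of 1.22.

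The 12 genes with the smallest p in each direction, by the rule that chose named genes, mixed these groups, and none passed edgeR's adjusted threshold. The higher ones were AttC, CG42521, scpr-C, Pif2, DptA, CG11893, CG18258, CG12506, Dro, DptB, Non1 and AttA. Of these, AttC, CG42521, scpr-C, DptA, CG11893, CG18258, CG12506 and Dro passed the filter through oenots>tsc1,tsc2 alone and could only come out higher. CG42521 had 284 and 573 CPM in oenots>tsc1,tsc2, against 0 and 1.81 CPM in oenots>EGFP. scpr-C had a pooled ratio of 49.7 (95% interval 16.4 to 245) for counting error, CG11893 one of 116 (95% interval 20.2 to 4666) and CG12506 one of 94.2 (95% interval 16.2 to 3787), each with 1 to 3 counts over both controls. CG18258 had no count in either oenots>EGFP library and was at least 29.0-fold higher in oenots>tsc1,tsc2 than 3 counts over both controls allow. Pif2, one of the cluster 13 genes, had 77.3 and 56.7 CPM in oenots>tsc1,tsc2, against 9.35 and 6.34 CPM in oenots>EGFP.

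The lower ones were CG43291, a, scb, LysP, Sgp, CG33143, Ddc, Lectin-galC1, CG34402, to, CG16904 and Kua. arc, whose symbol is a and which encodes a PDZ domain protein, had 49.0 and 40.5 CPM in oenots>tsc1,tsc2, against 284 and 297 CPM in oenots>EGFP (log2 fold change -2.67, SE 0.32, DESeq2 adjusted p = 2.82e-08). CG43291 had 30.6 and 28.3 CPM in oenots>tsc1,tsc2, against 266 and 246 CPM in oenots>EGFP (log2 fold change -3.10, SE 0.33, DESeq2 adjusted p = 1.50e-09). scb, an integrin alpha subunit, had 16.2 and 12.1 CPM in oenots>tsc1,tsc2, against 86.0 and 97.8 CPM in oenots>EGFP. For arc, CG43291 and scb the replicates of each genotype lay close together and the genotypes at least 5-fold apart. Ddc, dopa decarboxylase, had 48.5 and 46.6 CPM in oenots>tsc1,tsc2, against 212 and 303 CPM in oenots>EGFP, and Kua 16.7 and 26.3 CPM in oenots>tsc1,tsc2, against 135 and 119 CPM in oenots>EGFP. Lectin-galC1, a galactose-binding lectin gene, had 37.5 and 32.4 CPM in oenots>tsc1,tsc2, against 204 and 146 CPM in oenots>EGFP, and in oenocytes 232 and 182 CPM in oenots>tsc1,tsc2, against 1280.1 and 1439 CPM in oenots>EGFP. LysP is a lysozyme gene with close copies, so its count is uncertain. CG33143 had 3 counts in oenots>tsc1,tsc2 and 135 in oenots>EGFP, a pooled ratio of 0.0381 (95% interval 0.00775 to 0.114), and overlaps CG17807 on the other strand. With so few counts in oenots>tsc1,tsc2, CG33143 passed the filter through oenots>EGFP alone and could only come out lower.

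Whether adipose tissue answered in the same way as the oenocytes in which the transgenes were driven was tested gene by gene, with the library as a block because both tissues of a library came from the same flies. FASN3 helped to choose the oenocyte nuclei and counted against a nucleus in the adipose rule. The paper reports lower fasn3 expression in oenots>tsc1,tsc2 flies by RT-qPCR, so the genotype may affect which nuclei were chosen. This was not tested. The difference between the 2 fold changes passed an adjusted p of 0.05 for 39 genes that were higher in adipose tissue than in oenocytes relative to their controls (0.521% of 7489) and 87 that were lower (1.16%). Of the 122 with an estimate in both tissues, 109 had the smaller absolute fold change in adipose nuclei and 97 had estimates of opposite sign. Of all 126, 38 had an unadjusted p under 0.05 in adipose nuclei, 33 of these with opposite sign. Without the block the test called 1 gene, without oenots>tsc1,tsc2 replicate 1 or 2 it called 255 and 220 genes, and without oenots>EGFP replicate 1 or 2 it called 19 and 17. DESeq2 called 203, which included 109 of the 126. Within oenocytes alone edgeR called 68 genes higher and 66 lower of 6553. The genes CG15625, Dic1, futsch, rgn, Bsg25D, capu and CG7530 were called in every fit that left out 1 library.

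CG15625 was nearly level in adipose nuclei, with 414 and 281 CPM in oenots>tsc1,tsc2, against 368 and 417 CPM in oenots>EGFP, while it had 1581 and 1678 CPM in oenots>tsc1,tsc2 oenocytes, against 37.3 and 15.2 CPM in oenots>EGFP oenocytes. Dic1, a mitochondrial dicarboxylate carrier, had 439 and 235 CPM in oenots>tsc1,tsc2 adipose nuclei, against 391 and 240.4 CPM in oenots>EGFP adipose nuclei, and 179 and 105 CPM in oenots>tsc1,tsc2 oenocytes, against 3910.3 and 3884 CPM in oenots>EGFP oenocytes. The differences between tissues were -6.22 for CG15625 and 4.90 for Dic1 on the log2 scale, with adipose libraries that overlapped between genotypes in both.

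Other genes had estimates of opposite sign in the tissues. rgn, a C-type lectin gene, had 86.6 and 121 CPM in oenots>tsc1,tsc2 adipose nuclei, against 188 and 284 CPM in oenots>EGFP adipose nuclei, and 661 and 631 CPM in oenots>tsc1,tsc2 oenocytes, against 55.9 and 77.3 CPM in oenots>EGFP oenocytes (difference -4.48, edgeR adjusted p = 9.93e-04). capu, an actin-nucleating formin, had 194 and 213 CPM in oenots>tsc1,tsc2 adipose nuclei, against 391 and 539.7 CPM in oenots>EGFP adipose nuclei, and 725 and 555 CPM in oenots>tsc1,tsc2 oenocytes, against 85.4 and 115 CPM in oenots>EGFP oenocytes. The opposite pattern was that of CG7530, with 223 and 123 CPM in oenots>tsc1,tsc2 adipose nuclei, against 29.9 and 42.1 CPM in oenots>EGFP adipose nuclei, and 32.6 and 11.4 CPM in oenots>tsc1,tsc2 oenocytes, against 77.7 and 82.4 CPM in oenots>EGFP oenocytes (difference 4.13, edgeR adjusted p = 0.00243). CG4797, a sugar transporter-like gene, Mct1, a monocarboxylate transporter, and spin, a lysosomal transporter, shared it. spin had 926 and 733 CPM in oenots>tsc1,tsc2 adipose nuclei, against 267 and 285 CPM in oenots>EGFP adipose nuclei, and 169 and 56.9 CPM in oenots>tsc1,tsc2 oenocytes, against 301 and 323 CPM in oenots>EGFP oenocytes (difference 3.16, edgeR adjusted p = 0.00960). Mct1 overlaps FarO, an oenocyte gene, on the other strand, so its oenocyte values are uncertain.

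In the insulin and growth genes, Ilp6, the insulin-like peptide of the fat body, had 126 and 279 CPM in oenots>tsc1,tsc2 adipose nuclei, against 284 and 299.7 CPM in oenots>EGFP adipose nuclei, and 141 and 122 CPM in oenots>tsc1,tsc2 oenocytes, against 28.0 and 34.2 CPM in oenots>EGFP oenocytes. The difference between tissues was -2.75 (edgeR adjusted p = 0.0285), and Ilp6 rose in oenocytes (adjusted p = 0.0477). Myc, a growth transcription factor, had 693 and 1038 CPM in oenots>tsc1,tsc2 adipose nuclei, against 1046 and 1189 CPM in oenots>EGFP adipose nuclei, and 2089.6 and 2599 CPM in oenots>tsc1,tsc2 oenocytes, against 777 and 835 CPM in oenots>EGFP oenocytes (difference -1.93). REPTOR, a transcription factor that TOR holds back, differed by 2.29 between tissues (adjusted p = 0.0298), with an adipose log2 fold change of 0.28 and an oenocyte one of -2.02. For InR the difference was -2.28 and missed the threshold (edgeR adjusted p = 0.0977). kraken, a serine hydrolase gene, was higher in oenots>tsc1,tsc2 in both tissues, with 194 and 211 CPM in oenots>tsc1,tsc2 adipose nuclei, against 42.4 and 58.0 CPM in oenots>EGFP adipose nuclei, and 928 and 1200.1 CPM in oenots>tsc1,tsc2 oenocytes, against 37.3 and 59.6 CPM in oenots>EGFP oenocytes.

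**Figure D5:**
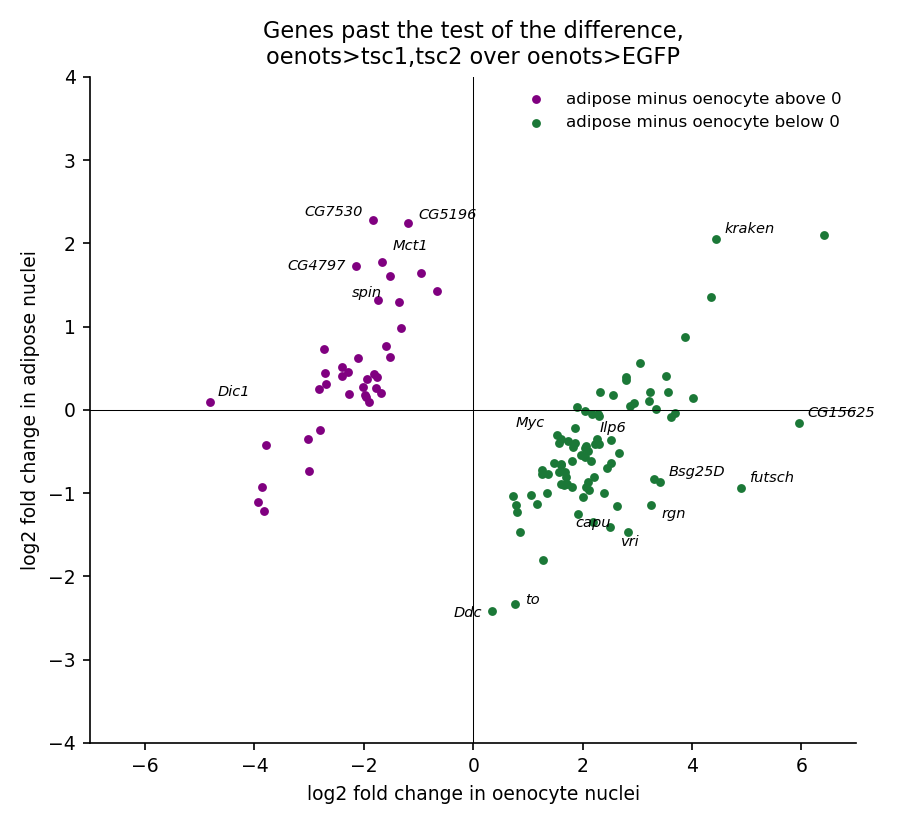
Log2 fold change (oenots>tsc1,tsc2 over oenots>EGFP) in oenocyte nuclei (x axis) and adipose nuclei (y axis) of 122 of the 126 genes past the test of the difference between tissues, the others lacking a fold change in 1 tissue. Purple points had an adipose minus oenocyte difference above 0 and green points one below 0, and 97 of the 122 had estimates of opposite sign.

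Muscle and cuticle nuclei gave a further class that the driver is not meant to target, though their gal4 values are not given here. The difference between the adipose and the muscle and cuticle fold changes passed edgeR's test for 0 of 6922 genes (0%), with 414 at an unadjusted p under 0.05 and 3 called by DESeq2. Without oenots>tsc1,tsc2 replicate 1 or 2 it called 59 and 46 genes, and without either oenots>EGFP library 0. Within muscle and cuticle nuclei edgeR called 0 genes higher and 2 lower of 5530, of which Sgp was one, at 38.2 and 48.7 CPM in oenots>tsc1,tsc2, against 676 and 866 CPM in oenots>EGFP. The antimicrobial peptide genes were low there too in oenots>EGFP. Dro had 94.5 and 27.4 CPM in oenots>tsc1,tsc2 muscle and cuticle nuclei, against 0 and 2.40 CPM in those of oenots>EGFP, and AttC 14.5 and 12.2 CPM, against 0 and 0 CPM in oenots>EGFP. In oenots>tsc1,tsc2 replicate 1 the CPM of Dro was thus well above that of adipose nuclei, while in replicate 2 the classes lay close together. InR had 127 and 131 CPM in oenots>tsc1,tsc2 muscle and cuticle nuclei, against 122 and 149 CPM in those of oenots>EGFP, with overlapping libraries. The difference between the classes, -1.46 on the log2 scale, missed the threshold (edgeR adjusted p = 0.689).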

How the data were processed

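Nuclei of dissected abdominal walls were profiled by droplet snRNA-seq in 4 libraries. The deposited tables hold counts, whole UMIs per gene and nucleus for 13955 genes. The authors made them with Cell Ranger 3.1.0 on a pre-mRNA reference from a release-6 FlyBase annotation and then subtracted ambient RNA with SoupX, assuming the same contamination in each sample. They dropped nuclei whose totals were extreme, taken to be doublets or dead, so no doublet caller was run here, and clustered nuclei with Seurat 3.1.2. Subtracting an assumed share can take low counts to 0 or leave ambient RNA behind. The genes, lists and nuclei described were chosen with earlier results of these data known.

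UMIs were summed per library over adipose nuclei, and likewise over oenocyte nuclei (at least 5 UMIs of FASN3, CG2765, bru2 and vvl, more than of either other set) and muscle or cuticle nuclei (Mhc, sls, bt, Cpr49Ab and Cpr65Au). The 17 rule genes were removed before CPM and library sizes were taken. The sums went into edgeR 4.0.16 under R 4.3.3, with TMM factors, filterByExpr, the quasi-likelihood test and Benjamini-Hochberg adjustment at 0.05. DESeq2 1.42.0 was an alternative. Standard errors of fold changes were derived from that test. Responses of 2 tissues were compared by the interaction of tissue and genotype with the library as a block. A genotype left with a single library was taken to vary as the other did. These steps were checked on simulated counts. Tables used Python 3.11.15 with pandas 2.3.3, numpy 2.4.6 and scipy 1.17.1. Intervals at 95% cover counting error only.

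Named genes were a panel of lipid, insulin and cluster genes and called genes whose libraries did not overlap and whose higher mean was at least 20 CPM. Since no gene was called, the 12 smallest p-values in each direction stand in for them. Further list members, up to 6 a list by unadjusted p, and the genes of the tissue comparison were chosen after their values were seen. Coordinates follow the BDGP6 annotation, of the same genome release. The use of strand in counting was not given in the sources used here. UMIs of ACC, ATPCL, Lsd-1, whd, Ilp6, Tps1, AttC, DptB, Pif2, LysP, Ddc, Lectin-galC1, tobi, Treh, Tret1-2, fit, ref(2)P, Sdc, Mtpalpha, Mtpbeta, rgn and Myc may therefore include those of a gene on the other strand, and those of a, SNF4Agamma, Pde9, SPE and futsch of a gene on the same strand.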

Additional observations from a re-analysis of the deposited data

Results flagged for a closer look

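For 19 genes named above, the genotype difference in adipose nuclei differed from that in oenocyte nuclei of the same libraries, by the edgeR test of the difference itself with the library as a block. The values are adipose minus oenocyte on the log2 scale. Below 0 were -6.22 for CG15625, -5.88 for futsch, which encodes a microtubule-binding protein, -4.48 for rgn, -4.33 for Bsg25D, a centrosomal protein gene, -4.12 for vri, -3.86 for capu, -3.14 for to, -2.84 for Ddc, -2.75 for Ilp6, -2.44 for kraken, -1.93 for Myc and -1.89 for bnl. Above 0 were 4.90 for Dic1, 4.13 for CG7530, 3.75 for CG4797, 3.38 for Mct1, 3.16 for spin, 2.60 for SPE and 2.29 for REPTOR. All 19 passed the adjusted threshold of 0.05. The number of genes that pass depends on the library block and on single libraries, as given below. With 2 libraries a genotype, no group was large enough to look for single libraries that stand apart by a range test.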

How the results depend on the processing

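The 2 libraries a genotype, the shallow oenots>tsc1,tsc2 replicate 2 and the separate files of the genotypes limit every comparison of genotypes here. For the adipose comparison, where edgeR called 0 of 8245 genes, DESeq2 called 114, edgeR without its filter on low counts 287 of 11793, edgeR on genes with at least 10 counts in every library 39 of 5130, and edgeR with the replicate number of the labels as a block 153 (117 higher, 36 lower). The numbers are not known to pair the libraries: deviations of same-numbered libraries correlated at 0.307 across 8245 genes, over 2 pairs only. Library totals alone, each stricter rule for adipose nuclei, thinning, the nuclei left out for shared barcodes or for male tract UMIs, each library left out and, chosen after seeing the data, the nuclei left out for gut UMIs or for 1000 or more UMIs gave 0. The cause of these differences in count was not tested.

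The adipose minus oenocyte test called 126 genes with the library as a block, 1 without it, 103 with library totals alone, 203 with DESeq2 and 17 to 255 with 1 library left out, which was chosen after seeing the data: 255 and 220 without oenots>tsc1,tsc2 replicate 1 and 2, 19 and 17 without oenots>EGFP replicate 1 and 2. Against muscle and cuticle it called 0 without the library block and with library totals, 3 with DESeq2 and 0 to 59 with 1 library left out. The adipose share, oenots>tsc1,tsc2 minus oenots>EGFP, differed by -17.96 percentage points and by -16.8, -19.0 and -14.5 with at least 10 marker UMIs, with nuclei thinned first and among nuclei with at least 5 UMIs of either marker set, and by -24.5 to -11.4 with 1 library left out, also chosen after seeing the data.

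Of 1888 alternative values of 113 named genes in adipose nuclei, 1864 kept their direction and 24 did not, and 54 genes passed the adjusted threshold under some alternative. Many of these genes were named for a small p or for libraries without overlap in these same sums. That choice favours a kept direction, so the count is no independent check. The log2 fold changes of genes that turned had a range, with 1 library left out, of -0.56 to 0.53 for ACC, -0.94 to 0.089 for ATPCL, -0.34 to 0.75 for Desat1, -0.58 to 0.065 for bmm, -0.19 to 0.49 for Hsl, -0.43 to 0.032 for Mtp, -0.32 to 1.02 for Thor, -1.36 to 0.13 for Ilp6, -1.40 to 0.29 for GlyP, -2.03 to 0.44 for Obp99b, -0.26 to 0.49 for Dic1, -0.83 to 0.083 for Myc and -0.11 to 0.74 for REPTOR. Thinned to 200 UMIs they were -0.67 for gal4, -0.24 for ACC, 0.16 for bmm, -0.034 for Hsl and -0.048 for Dic1. Without nuclei of at least 1000 UMIs they were -0.14 for ACC and 0.048 for bmm, and without the filter ACC had -0.00615. Of 646 alternative medians of 38 gene lists, 579 moved by less than the spread between replicates and 67 by more. With 1 library left out the median of 19 lists changed sign, such as that of lipoprotein and lipid transport, at 0.35 with all libraries and -0.29 without oenots>tsc1,tsc2 replicate 1.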
